A study of Mus musculus with 44 samples.

Results

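The genes described here are 9 members of the TGF-beta pathway, measured by RNA-seq in primary mouse microglia and astrocytes kept in culture. They comprise the ligand genes Tgfb1, Tgfb2 and Tgfb3, the receptor genes Tgfbr1, Tgfbr2 and Tgfbr3, the signal transducer gene Smad3, the inhibitor gene Smad7, and Nrros, whose product anchors latent TGF-beta on the cell surface. They are 9 of 54146 gene rows in the count table and were picked by symbol. The rule holds no measured value, but it was set with earlier results of these data known. Each cell type had 4 libraries from Apoe knock-out mice (KO; 1 female, 3 male), 6 from APOE44 mice (3 female, 3 male), 6 from APOE33 mice (4 female, 2 male) and 6 from wild-type mice (WT; 3 female, 3 male), 44 in all. APOE44 and APOE33 are named for human alleles of the lipid carrier apolipoprotein E, while WT mice carry mouse Apoe. All cells were purified, grown in media made for human glia with no treatment, and sequenced as bulk RNA. The 32 KO, APOE44 and APOE33 libraries are tagged batch 1 and the 12 WT libraries batch 2, so that against WT, genotype and batch cannot be told apart. Strain, age and how the alleles were made are not stated in the labels. Nothing in the labels says whether replicates came from separate animals or cultures, so p-values measure only the spread between libraries.

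TGF-beta ligands are secreted in a latent complex, held in the matrix by LTBP proteins or on the cell surface by LRRC32 and NRROS, and released by integrins and proteases. The freed ligand binds TGFBR2, which phosphorylates the kinase TGFBR1, while TGFBR3 (betaglycan) is a co-receptor that helps present TGF-beta2. TGFBR1 then phosphorylates SMAD2 and SMAD3, which enter the nucleus with SMAD4, and SMAD7 is induced by the pathway and blocks the receptor. In the brain, microglia need TGF-beta signals and NRROS to keep their homeostatic gene expression.

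Library totals were 86313947 to 120505499 counts in microglia and 83239599 to 143150569 in astrocytes, and both reads of a pair appear to be counted, since 65.9% to 78.7% of low counts in microglia and 62.4% to 75.5% in astrocytes were even. Levels are given as CPM (counts scaled to a common library total) after TMM scaling, a correction for library composition. Apoe, the altered gene, stood at 7.50 to 28.0 CPM in KO microglia and 46.7 to 60.4, 44.9 to 81.6 and 45586 to 61083 CPM in APOE44, APOE33 and WT microglia. In astrocytes it stood at 9.29 to 13.2 CPM in KO, 19.6 to 29.4 in APOE44, 19.8 to 30.6 in APOE33 and 4948 to 6397 CPM in WT; human APOE has no row in the mouse table. The summed level of 18 microglia and macrophage markers was 26395 to 44473 CPM over all microglia libraries and 174.3 to 716.4 CPM over all astrocyte libraries, and none of the 18 was at 0 in any group. The 18 astrocyte markers summed to 784.4 to 1614 CPM in microglia and 15757 to 22632 CPM in astrocytes, so each label stood with its own markers. 1 library, astrocyte APOE33 replicate 1, carries a WT genotype tag but is APOE33 in its title and source and batch 1 in its batch tag, and was kept as APOE33. No strand setting is stated, and genes with few counts share exon bases with Tgfb2 (antisense Gm29491, 124 bases), Tgfb3 (antisense Gm37804, 163, and Gm48008, 257) and Tgfbr3 (Gm43422 on the same strand, 297), where reads cannot be told apart.

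Among the ligands, microglia and astrocytes held different genes. Tgfb1 encodes TGF-beta1, the ligand most studied in microglia (ENSMUSG00000002603.15, chr7:25687002-25705077, plus strand of GRCm38). It lies 5.99 Mb from Apoe, the altered gene, and the part of this in its genotype differences was not tested. Its level ran at 374 to 529 CPM (median 406) in the 16 microglia libraries of batch 1 and at 1.55 to 3.65 CPM (median 2.62) in the 16 astrocyte libraries. Tgfb2 encodes TGF-beta2 (ENSMUSG00000039239.14, chr1:186622792-186705989, minus strand) and ran the other way, at 0.155 to 3.74 CPM (median 1.02) in microglia and 42.4 to 82.6 CPM (median 71.8) in astrocytes. Tgfb3 encodes TGF-beta3 (ENSMUSG00000021253.7, chr12:86056745-86079041, minus strand) and stood at 0.371 to 1.06 CPM (median 0.735) in microglia and 16.1 to 34.7 CPM (median 24.7) in astrocytes. In each of the 3 genes the libraries of the pair of cell types did not overlap. The share of all genes without overlap was not counted, here or in later comparisons, so such separation is a description only. Per kilobase of merged exons and as a share of the 3 ligands, Tgfb1 made up 99.7%, 99.3%, 99.5% and 99.5% of ligand transcripts in KO, APOE44, APOE33 and WT microglia. In astrocytes Tgfb2 was the most abundant ligand per kilobase, with mean shares of 53.9%, 62.9%, 62.4% and 65.5% in KO, APOE44, APOE33 and WT cells. Tgfb3 held 42.8%, 34.5%, 35.3% and 31.7% there, and Tgfb1 held 3.34%, 2.56%, 2.37% and 2.75%.

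Differences were tested with edgeR's quasi-likelihood test and Benjamini-Hochberg adjustment over all genes tested, and a gene is called at an adjusted p under 0.05. In batch 1, Tgfb1 was higher in microglia by 7.29 on the log2 scale (SE 0.13, edgeR adjusted p = 1.22e-27), a fold of 156. Tgfb2 and Tgfb3 differed by -6.04 (SE 0.26, edgeR adjusted p = 2.59e-18) and -5.08 (SE 0.12, edgeR adjusted p = 6.88e-25). Of the 9 genes, 6 were higher and 3 lower in microglia, but 90.9% of the 21647 genes tested were called in this comparison (40.3% higher, 50.6% lower), so being called says little. The member median was 2.34 on the log2 scale, beside -0.25 over all genes. In bulk cultures, fewer cells of a type and less RNA per cell cannot be told apart. In WT cells, which form their own batch, 5 were higher and 3 lower (89.5% of all genes called, 41.6% higher and 47.9% lower), with 6.79 for Tgfb1, -6.92 for Tgfb2 and -5.06 for Tgfb3.

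The sequence just before the start of Tgfb1 and Tgfb2 is shown because these are the ligand genes with the largest difference in each direction between the cell types. Both are the 250 bases before the annotated start, from RefSeq on GRCm38.p6, written 5′ to 3′ on the gene's own strand. The Tgfb1 window lies at chr7:25686752-25687001, plus strand, and the Tgfb2 window at chr1:186705990-186706239, minus strand. Capitals mark letters searched for on both strands, and no match overlapped another in the windows shown: the GC box GGGCGG (which reads as CCGCCC from the other strand), the TATA box TATAAA, the E-box CACGTG, the PU.1 core motif GAGGAA (PU.1 is a myeloid transcription factor), and the SMAD-binding motif CAGAC.
Tgfb1: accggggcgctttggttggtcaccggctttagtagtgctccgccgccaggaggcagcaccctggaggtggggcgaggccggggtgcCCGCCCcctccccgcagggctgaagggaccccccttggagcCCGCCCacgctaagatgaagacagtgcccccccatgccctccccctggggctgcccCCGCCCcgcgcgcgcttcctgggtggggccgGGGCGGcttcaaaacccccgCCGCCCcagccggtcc
Tgfb2: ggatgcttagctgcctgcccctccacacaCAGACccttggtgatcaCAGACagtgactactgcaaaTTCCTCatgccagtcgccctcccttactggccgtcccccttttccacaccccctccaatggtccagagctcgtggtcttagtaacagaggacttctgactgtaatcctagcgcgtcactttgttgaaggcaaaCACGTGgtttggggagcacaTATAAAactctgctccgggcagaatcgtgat
The Tgfb1 window had 75.2% G and C and 5 matches to GGGCGG, and the Tgfb2 window 53.6% and none, beside a median of 52.4% over 32851 such windows. The Tgfb2 window held TATAAA 31 bases and CACGTG 51 bases before the start, 1 GAGGAA and 2 CAGAC. Of all windows, 32.7% held GGGCGG, 12.4% TATAAA, 6.02% CACGTG, 23.3% GAGGAA and 42.2% CAGAC on either strand. Such matches describe letters only.

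**Figure D1:**
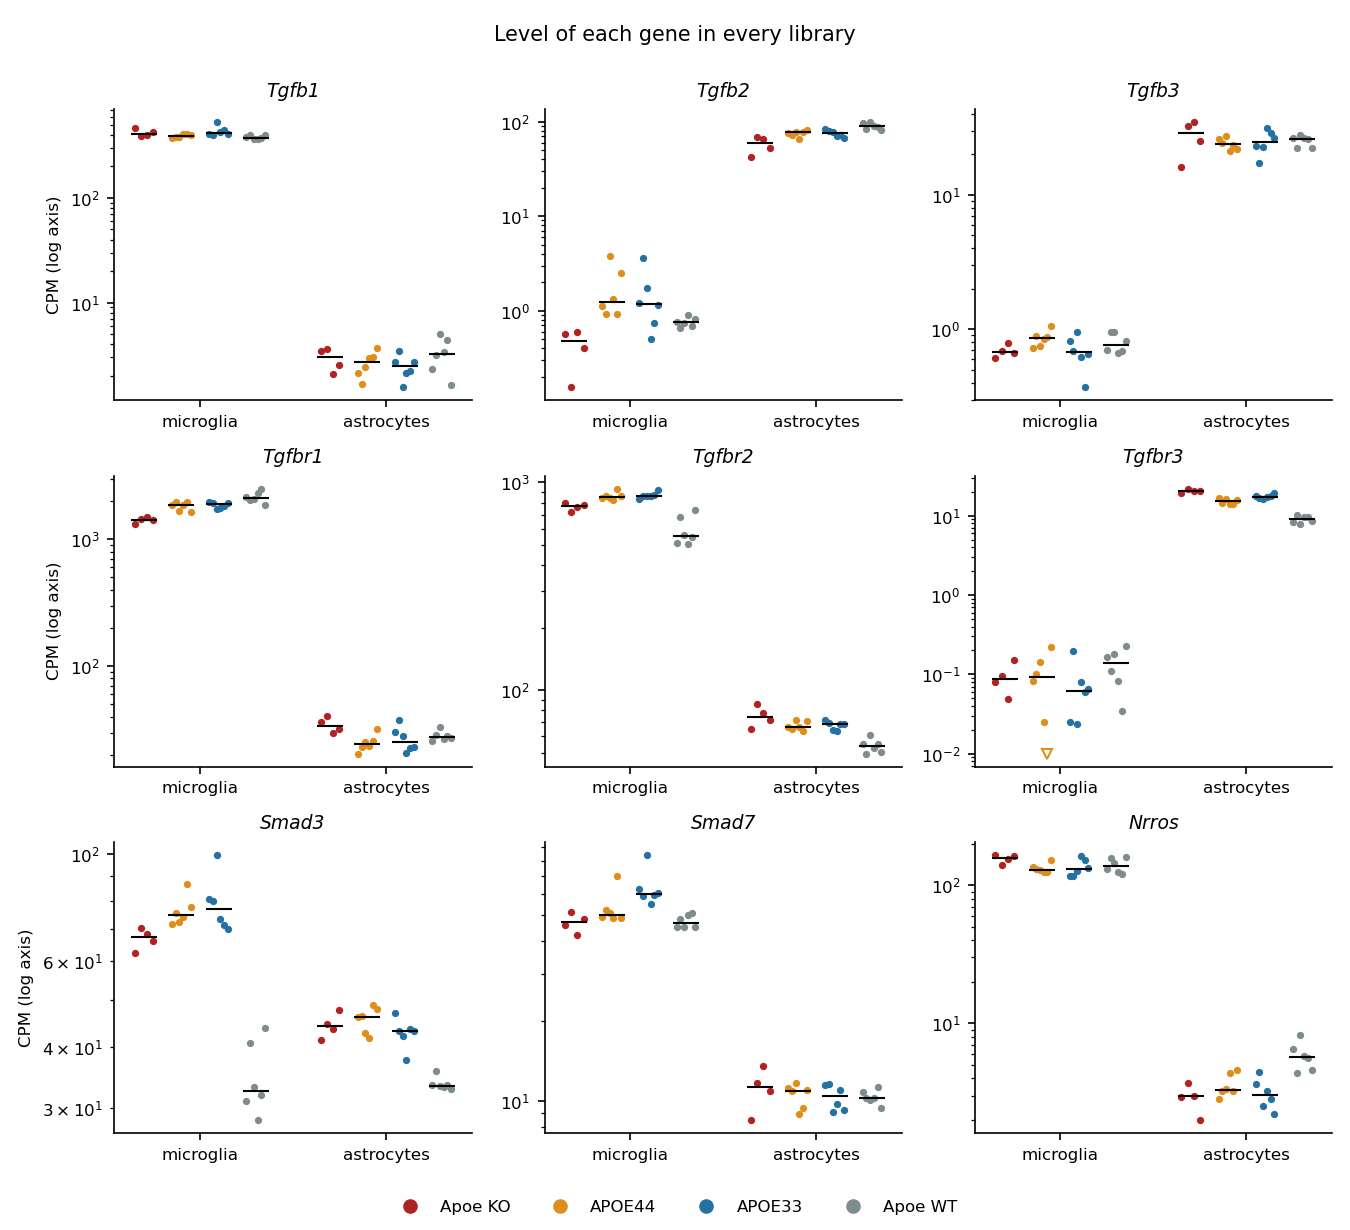
Level of each of the 9 genes in every library (CPM, log axis), by cell type and genotype; points are libraries and black bars are group medians. Tgfb1, Tgfbr1, Tgfbr2, Smad7 and Nrros stand higher in all microglia libraries than in any astrocyte library, Tgfb2, Tgfb3 and Tgfbr3 lower, and the open triangle marks the 1 library with no count of Tgfbr3.

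Both signalling receptors were higher in microglia. Tgfbr1 encodes the type I receptor kinase (ENSMUSG00000007613.15, chr4:47353222-47414931, plus strand) and stood at 1322 to 1973 CPM (median 1794) in microglia and 20.5 to 40.3 CPM (median 26.8) in astrocytes of batch 1, a log2 difference of 5.89 (SE 0.09, edgeR adjusted p = 5.51e-30). Tgfbr2 encodes the type II receptor (ENSMUSG00000032440.13, chr9:116084293-116175360, minus strand) and stood at 721 to 932 CPM (median 851) in microglia and 63.9 to 85.9 CPM (median 68.8) in astrocytes, a difference of 3.57 (SE 0.04, edgeR adjusted p = 8.86e-34). The co-receptor gene Tgfbr3 (ENSMUSG00000029287.14, chr5:107106570-107289629, minus strand) stood at 14.0 to 21.9 CPM (median 17.1) in astrocytes. The 22 microglia libraries had 0 to 20 counts of it each; the library with none was APOE44 replicate 5, where 3 counts would be 0.0331 CPM. Its fitted difference of -7.62 (SE 0.21, edgeR adjusted p = 3.54e-23) rests on those few counts. WT cells gave 6.19, 3.38 and -6.16 for Tgfbr1, Tgfbr2 and Tgfbr3. Per kilobase, Tgfbr1 formed 70.0%, 72.6%, 72.8% and 81.9% of the 3 receptors in KO, APOE44, APOE33 and WT microglia. In KO, APOE44, APOE33 and WT astrocytes Tgfbr2 formed 52.0%, 57.4%, 55.0% and 53.6%, and Tgfbr3 17.9%, 16.2%, 17.8% and 11.3%.

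The SMAD genes differed less between the cell types. Smad7, the inhibitor (ENSMUSG00000025880.11, chr18:75367529-75395935, plus strand), stood at 42.0 to 84.1 CPM (median 51.8) in microglia and 8.49 to 13.5 CPM (median 10.9) in astrocytes, a log2 difference of 2.34 (SE 0.07, edgeR adjusted p = 5.29e-23). Smad3, a transducer (ENSMUSG00000032402.12, chr9:63646767-63757994, minus strand), stood at 62.3 to 99.2 CPM (median 72.9) in microglia and 37.6 to 48.8 CPM (median 43.5) in astrocytes of batch 1, a difference of 0.74 (SE 0.04, edgeR adjusted p = 3.42e-16). In WT cells it stood at 28.3 to 43.7 CPM (median 32.5) in microglia and 32.8 to 35.7 CPM (median 33.3) in astrocytes, a difference of -0.02 (SE 0.07, edgeR adjusted p = 0.772), with overlapping libraries. Smad3 was thus the member whose cell type difference was called in batch 1 and not in WT. Nrros (ENSMUSG00000052384.14, chr16:32142785-32165594, minus strand), known from microglia and other myeloid cells, stood at 116 to 165 CPM (median 135) in microglia and 2.00 to 4.62 CPM (median 3.25) in astrocytes, a difference of 5.46 (SE 0.09, edgeR adjusted p = 4.9e-28).

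Ranked per kilobase, the order of levels in batch 1 microglia was Tgfbr1 (mean 266 CPM per kilobase), Tgfbr2 (102), Tgfb1 (82.6), Nrros (33.4), Smad3 (13.5), Smad7 (12.3), Tgfb2 (0.229), Tgfb3 (0.222) and Tgfbr3 (0.0134). The ranges over the 16 libraries overlapped between Tgfbr2 and Tgfb1, between Smad3 and Smad7, and between Tgfb2 and Tgfb3. All genes were measured in the same libraries, so overlapping ranges do not say whether an order held within each library. The astrocyte order was Tgfb2 (12.2), Tgfbr2 (8.49), Smad3 (7.97), Tgfb3 (7.44), Tgfbr1 (4.30), Tgfbr3 (2.66), Smad7 (2.35), Nrros (0.783) and Tgfb1 (0.525), where neighbours overlapped except Smad7 and Nrros.

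**Figure D2:**
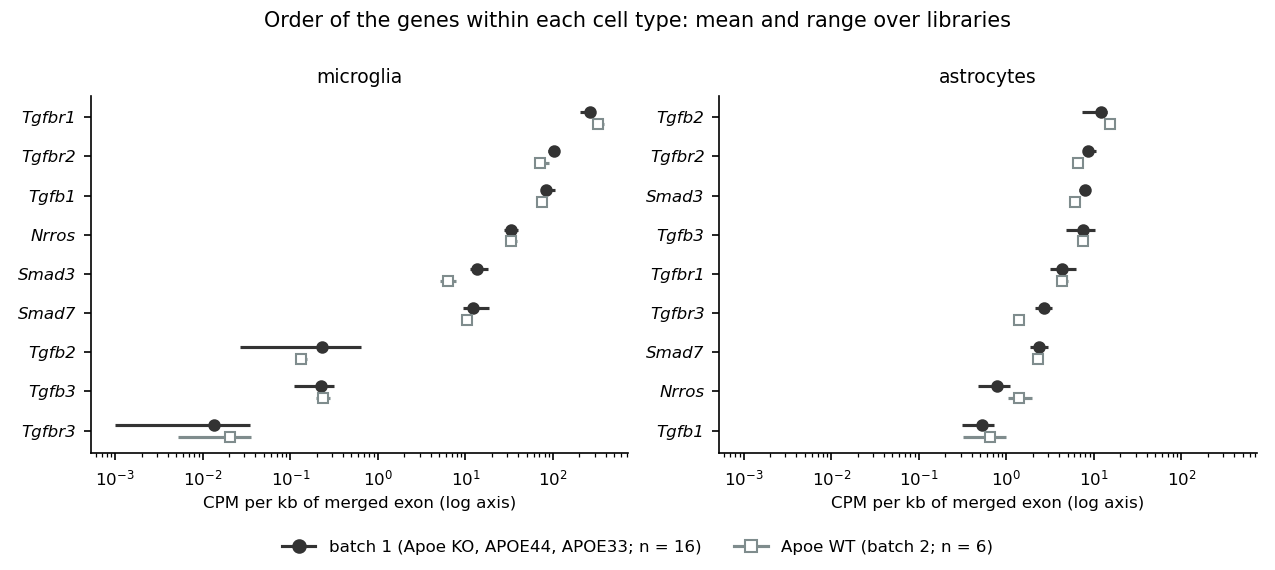
Mean level per kilobase of merged exons (CPM per kilobase, log axis) of the 9 genes in batch 1 (n = 16 libraries per cell type) and WT (n = 6), with bars for the range over libraries. By mean level Tgfbr1 leads in microglia and Tgfb2 in astrocytes in both batches, although the ranges of Tgfb2 and Tgfbr2 overlap in batch 1 astrocytes; the Tgfbr3 range in batch 1 microglia reaches 0 and is drawn to the foot of the axis.

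Loss of Apoe was set against both human-allele genotypes within batch 1. In KO microglia, Tgfbr1, Tgfbr2, Smad7 and Smad3 were lower than in APOE33 microglia and no member was higher, while Tgfb1, the main microglial ligand, was not called. Tgfbr1 stood at 1322, 1436, 1501 and 1425 CPM in the 4 KO libraries, against 1626 to 1972 CPM (median 1859) in the 6 APOE44 and 1719 to 1973 CPM (median 1880.0) in the 6 APOE33 libraries. Every KO library lay below every APOE44 and APOE33 library, and the KO level was 25.0% lower than APOE33, a log2 difference of -0.41 (SE 0.07, edgeR adjusted p = 0.000632), and 22.9% lower than APOE44, at -0.38 (SE 0.07, edgeR adjusted p = 0.000819). Tgfbr2 stood at 796, 721, 759 and 775 CPM in KO, against 826 to 932 CPM (median 852) in APOE44 and 833 to 922 CPM (median 861) in APOE33. Again no KO library reached the other genotypes, with smaller differences of -0.21 (SE 0.05, edgeR adjusted p = 0.00317) from APOE33 and -0.19 (SE 0.04, edgeR adjusted p = 0.00455) from APOE44. These 4 calls, for both receptors against both genotypes, held in every alternative run.

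Smad7 stood at 46.1, 51.3, 42.0 and 48.3 CPM in KO microglia, against 48.6 to 69.9 CPM (median 50.1) in APOE44 and 55.3 to 84.1 CPM (median 60.0) in APOE33. The KO libraries lay below all APOE33 libraries and among the APOE44 ones. Smad7 was lower than in APOE33, at -0.53 (SE 0.11, edgeR adjusted p = 0.00311), and differed from APOE44 by -0.24 (SE 0.11, edgeR adjusted p = 0.116), not called. Smad3 stood at 62.3, 70.3, 68.4 and 66.2 CPM in KO, against 71.7 to 86.5 CPM (median 74.6) in APOE44 and 70.0 to 99.2 CPM (median 76.7) in APOE33. The KO libraries lay below all APOE44 libraries and overlapped the APOE33 ones. Its difference was -0.30 (SE 0.09, edgeR adjusted p = 0.0192) from APOE33 and -0.23 (SE 0.08, edgeR adjusted p = 0.0552) from APOE44. The Smad3 call against APOE33 was lost without APOE33 replicate 3, the highest library (-0.19, adjusted p = 0.0666), and without KO replicate 1 (-0.28, adjusted p = 0.0827), while its adjusted p ran from 0.00399 to 0.0844 over all alternatives. That APOE33 library was also the highest of its group in Tgfb1 (529 CPM) and Smad7 (84.1 CPM).

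Of the ligands in KO microglia, Tgfb1 stood at 469, 390.3, 396 and 429 CPM, against 374 to 409 CPM (median 392) in APOE44 and 404 to 529 CPM (median 418) in APOE33, and the groups overlapped. The difference was -0.07 from APOE33 (95% interval -0.22 to 0.08, edgeR adjusted p = 0.566) and 0.09 from APOE44 (95% interval -0.06 to 0.23, edgeR adjusted p = 0.424). Tgfb2 was scarce, at 0.562, 0.155, 0.591 and 0.400 CPM in KO, against 0.915 to 3.74 CPM (median 1.23) in APOE44 and 0.50 to 3.63 CPM (median 1.17) in APOE33. All KO libraries lay below the APOE44 ones and overlapped the APOE33 ones. Tgfb2 was called lower against APOE44, at -2.06 (SE 0.62, edgeR adjusted p = 0.0242), and not against APOE33, at -1.81 (SE 0.63, edgeR adjusted p = 0.053). Tgfb3 differed by -0.03 from APOE33 and -0.34 from APOE44 (edgeR adjusted p = 0.945 and 0.298). Tgfbr3, at 0.0482 to 0.153 CPM in KO, gave 0.62 and 0.16 with wide errors (SE 0.82 and 0.76). Nrros stood at 165, 141, 155 and 162 CPM in KO, against 125 to 152 CPM (median 129.8) in APOE44 and 116 to 162 CPM (median 130.5) in APOE33, with differences of 0.24 (SE 0.09, edgeR adjusted p = 0.0579) from APOE44 and 0.22 (SE 0.09, edgeR adjusted p = 0.0987) from APOE33, neither called.

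The 3 batch 1 microglia libraries with the most Tgfb2 were also rich in transcripts of other cells. They were APOE44 replicates 3 and 6 (3.74 and 2.53 CPM) and APOE33 replicate 2 (3.63 CPM). In these 3 libraries the summed level of 12 neuron markers was 8.11, 6.86 and 8.64 CPM and that of 14 mural and meningeal fibroblast markers 7.90, 7.27 and 9.83 CPM. Neuron markers summed to 0.526 to 2.13 CPM in KO, 1.49 to 8.11 in APOE44 and 0.578 to 8.64 CPM in APOE33 microglia, with Slc17a6 at 0 in all 3 groups and Syt1 and Nefl at 0 in KO. The fibroblast list summed to 1.27 to 2.25, 1.26 to 7.90 and 0.737 to 9.83 CPM in KO, APOE44 and APOE33. Kcnj8 and Lum were at 0 in all 3 groups, Col1a1 and Col3a1 in KO and APOE33, and Col1a2, Dcn and Igf2 in KO. In WT microglia the fibroblast list summed to 3.45 to 8.38 CPM and neuron markers to 0.802 to 2.06 CPM, with none at 0, while Tgfb2 stood at 0.664 to 0.907 CPM, less than in those 3 libraries. The part of these cells in the Tgfb2 result was not tested. Leaving out these 3 libraries, an alternative added after the values were seen, takes away the highest Tgfb2 values. A smaller difference and a smaller spread both follow from that choice, so its Tgfb2 calls add nothing to the main fit. KO then differed from APOE44 by -1.39 (SE 0.41, edgeR adjusted p = 0.0243, with 0.000972 to 0.0658 over all alternatives). From APOE33 it differed by -1.37 (SE 0.39, edgeR adjusted p = 0.0244, with 0.00726 to 0.131 over all alternatives). The Tgfbr1 and Tgfbr2 calls held without these 3 libraries. The Tgfb2 call against APOE44 was lost without KO replicate 1, 2 or 4 or APOE44 replicate 3 (adjusted p 0.0514, 0.0658, 0.0612 and 0.0644).

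In all, 0 members were higher and 4 lower in KO than in APOE33 microglia, with 22.7% of 17143 genes called (10.9% higher, 11.9% lower). Against APOE44, 0 were higher and 3 lower, with 26.9% of genes called (13.6% higher, 13.4% lower). The member medians were -0.21 and -0.23 on the log2 scale, beside -0.02 and -0.01 over all genes. The comparisons with APOE33 and with APOE44 share the 4 KO libraries.

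**Figure D3:**
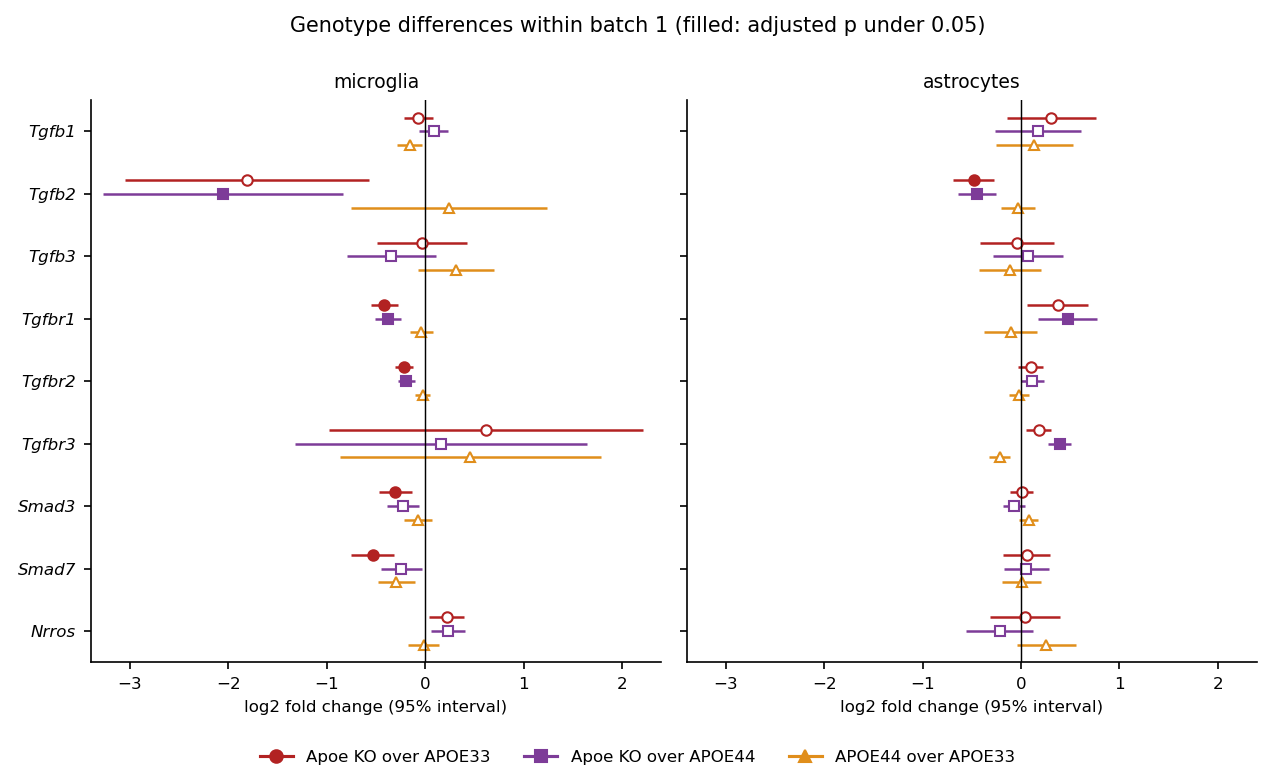
Log2 differences of the 9 genes between genotypes of batch 1 in microglia and astrocytes, with approximate 95% intervals. Filled points have an adjusted p under 0.05. In KO microglia Tgfbr1 and Tgfbr2 lie below 0 against both APOE44 and APOE33, in KO astrocytes Tgfb2 does, and no point is filled for APOE44 against APOE33.

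Sequence before the start is given for the 3 members with a promoter entry that were lower in KO than in APOE33 microglia, Tgfbr1, Tgfbr2 and Smad3. Windows, source and capitals are as for the ligands, at chr4:47352972-47353221, plus strand, chr9:116175364-116175613, minus strand, and chr9:63757995-63758244, minus strand.
Tgfbr1: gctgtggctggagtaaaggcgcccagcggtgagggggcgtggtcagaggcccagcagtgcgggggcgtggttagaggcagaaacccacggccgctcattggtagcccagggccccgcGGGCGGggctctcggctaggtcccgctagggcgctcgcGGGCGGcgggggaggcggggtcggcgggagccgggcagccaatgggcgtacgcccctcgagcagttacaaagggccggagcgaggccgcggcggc
Tgfbr2: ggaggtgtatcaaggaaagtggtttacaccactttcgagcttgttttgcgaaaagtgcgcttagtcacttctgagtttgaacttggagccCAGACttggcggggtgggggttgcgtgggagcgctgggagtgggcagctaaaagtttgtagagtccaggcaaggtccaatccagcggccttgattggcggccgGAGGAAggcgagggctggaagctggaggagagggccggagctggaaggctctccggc
Smad3: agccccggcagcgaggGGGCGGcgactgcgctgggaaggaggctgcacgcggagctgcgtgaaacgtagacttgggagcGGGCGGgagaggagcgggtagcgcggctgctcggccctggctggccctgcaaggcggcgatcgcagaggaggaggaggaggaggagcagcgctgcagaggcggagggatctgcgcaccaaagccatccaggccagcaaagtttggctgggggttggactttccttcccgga
Tgfbr1 and Smad3 each held 2 matches to GGGCGG, with 74.8% and 69.2% G and C. Tgfbr2 held none of GGGCGG, 1 GAGGAA and 1 CAGAC, with 58.4% G and C. No motif of those searched was found in all 3 windows. RefSeq lists a further Tgfbr1 start, not shown; Nrros had an entry, and Tgfb3, Tgfbr3 and Smad7 were not matched.

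The rest of the pathway was read from lists of its other genes, chosen with results of these data known. The shares of all genes called, 22.7% against APOE33 and 26.9% against APOE44, are the background for the counts in microglia. Of 22 SMADs and SMAD regulators, 21 were tested in microglia, and 2 were higher and 10 lower in KO than in APOE33, with a median of -0.18. Smad1, a transducer of BMP signals, was lower at a log2 difference of -0.41 (edgeR adjusted p = 5.99e-05), the ubiquitin ligase gene Smurf1 at -0.32 (edgeR adjusted p = 8.89e-05), and Zfyve9, whose product presents SMADs to the receptor, at -0.39 (edgeR adjusted p = 0.00249). Ldlrad4, an inhibitor of the pathway, was lower at -0.29 (edgeR adjusted p = 0.00303). Against APOE44, 1 was higher and 9 lower, with a median of -0.16, Smad1 at -0.40 (edgeR adjusted p = 4.62e-05), Zfyve9 at -0.47 (edgeR adjusted p = 0.000336) and Skil, a SMAD co-repressor, at -0.48 (edgeR adjusted p = 0.000162). Among 14 co-receptors and other family receptors, 3 were higher and 2 lower of 12 tested against APOE33. Acvr1, a type I receptor for BMPs and activins, was lower (-0.42, edgeR adjusted p = 9.52e-06) and so was endoglin, Eng (-1.48, edgeR adjusted p = 0.000839). The neuropilin gene Nrp1 was higher (0.68, edgeR adjusted p = 1.36e-05), as was Bambi, a decoy receptor (0.69, edgeR adjusted p = 0.00162). Against APOE44 the same list had 3 higher and 3 lower, with Nrp1 at 0.62 and Bambi at 0.93.

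Genes of ligand latency and activation were mostly higher in KO microglia where they were called. Of 16 tested of 20, 5 were higher and 1 lower than in APOE33 (median 0.05), and 7 higher and 0 lower than in APOE44 (median 0.06). The membrane protease gene Mmp14 was higher than in APOE33 by 1.24 (edgeR adjusted p = 3.99e-05), the latent binding protein gene Ltbp3 by 0.78 (edgeR adjusted p = 0.028), the integrin gene Itgb1 by 0.24 (edgeR adjusted p = 0.000839) and the matrix gene Emilin1 by 1.94 (edgeR adjusted p = 0.00558). Target genes of the pathway went both ways. Of 21 tested of 24, 3 were higher and 4 lower than in APOE33 (median -0.11), with the matricellular gene Ccn2 at 1.13 (edgeR adjusted p = 0.000477) and the transcription regulator gene Id1 at -0.92 (edgeR adjusted p = 0.000875). Against APOE44 they were 4 higher and 4 lower (median 0.02), with Ccn2 at 0.91 (edgeR adjusted p = 0.00141) and Id1 at -0.94 (edgeR adjusted p = 0.000531).

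Homeostatic microglia genes known to depend on TGF-beta were mostly lower in KO microglia where they were called. Of 20 tested, 0 were higher and 9 lower than in APOE33, with a median of -0.31, and 2 were higher and 8 lower than in APOE44, with a median of -0.30. Tmem119, a surface marker of resident microglia, was lower than in APOE33 at -1.73 (edgeR adjusted p = 4.94e-06), the transcription factor gene Sall1 at -2.42 (edgeR adjusted p = 0.00032), Olfml3 at -1.09 (edgeR adjusted p = 4.04e-05) and the purinergic receptor gene P2ry13 at -0.77 (edgeR adjusted p = 0.00497). Against APOE44, Tmem119 differed by -1.75, Sall1 by -2.27 and Olfml3 by -0.93, while Gas6, a ligand of engulfment receptors, was higher by 0.64 (edgeR adjusted p = 0.00384). Against WT, where genotype and batch cannot be told apart, the list went mostly the other way, with 10 higher and 1 lower in KO (median 0.32) and summed levels of 21010.0 to 22635 CPM in KO and 15833 to 20261 CPM in WT. Border macrophage and monocyte markers moved with these changes. Their 10 genes summed to 1853 to 2084 CPM in KO microglia, 1260.0 to 1666 in APOE44, 1184 to 1727 in APOE33 and 1374 to 1625 CPM in WT, with Ly6c2 at 0 in APOE33 and WT. Of 7 tested, 5 were higher and 0 lower in KO than in APOE33, with Cbr2 at 2.69 (edgeR adjusted p = 0.00117) and Mrc1 at 1.44 (edgeR adjusted p = 0.0013). The 18 microglia and macrophage markers summed to 36017 to 38808 CPM in KO, 34873 to 41546 in APOE44 and 36264 to 44473 CPM in APOE33, ranges that overlapped. Per 1000 CPM of those markers, Tgfbr1 stood at 34.1 to 41.3 CPM in KO, 40.3 to 54.9 in APOE44 and 38.6 to 53.1 CPM in APOE33. The Tgfbr1 ranges of KO and both genotypes thus overlapped on that scale. The KO mean was still the lowest, at 38.2 CPM against 48.96 in APOE44 and 48.3 CPM in APOE33. Tgfbr2 stood at 20.02 to 20.9 CPM in KO, 21.4 to 24.1 in APOE44 and 19.4 to 25.4 CPM in APOE33, where KO lay below APOE44 and overlapped APOE33. Astrocyte markers summed to 784 to 949 CPM in KO, 1262 to 1347 in APOE44 and 1195 to 1614 CPM in APOE33 microglia, with Gjb6 at 0 in APOE44 and KO below both, and 2 were higher and 1 lower of 17 tested against APOE33. Oligodendrocyte lineage markers, 14 genes, summed to 219.7 to 258 CPM in KO, 318 to 408 in APOE44 and 245 to 350.3 CPM in APOE33, with Mog and Gpr17 at 0 in KO and Opalin at 0 in KO and APOE33, and KO below all APOE44 libraries. Of 12 tested, 0 were higher and 5 lower in KO than in APOE33 (median -2.06), and 0 higher and 6 lower than in APOE44 (median -3.46). The part that any of these cell types had in the pathway results was not tested.

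In KO astrocytes the member that changed against both human-allele genotypes was the main astrocytic ligand, Tgfb2. It stood at 42.4, 68.4, 65.2 and 53.1 CPM in the 4 KO libraries, against 65.8 to 81.3 CPM (median 76.8) in APOE44 and 66.8 to 82.6 CPM (median 75.0) in APOE33. KO replicate 2 lay within the APOE44 and APOE33 ranges, and the other 3 KO libraries lay below every library of both. Tgfb2 was 28.2% lower than in APOE33, a log2 difference of -0.48 (SE 0.11, edgeR adjusted p = 0.00717), and 26.6% lower than in APOE44, at -0.45 (SE 0.10, edgeR adjusted p = 0.0054). KO replicate 1, the sole female KO library, was the lowest, and both calls remained without it, although the difference from APOE33 came down to -0.32, with the highest adjusted p on leaving out 1 library 0.0492 against APOE33 and 0.0305 against APOE44. Tgfb3, the other astrocytic ligand, ranged widely in KO, at 16.1, 32.6, 34.7 and 25.2 CPM, against 21.3 to 27.5 CPM (median 23.8) in APOE44 and 17.2 to 31.2 CPM (median 24.8) in APOE33, and gave -0.04 from APOE33 (95% interval -0.42 to 0.34) and 0.07 from APOE44 (95% interval -0.29 to 0.43). The astrocyte libraries of KO also stood lower in astrocyte markers. Those 18 genes summed to 15757 to 19255 CPM in KO, 19415 to 21751 in APOE44 and 16016 to 21517 CPM in APOE33, with none at 0, and all KO libraries lay below the APOE44 ones. Of the 18, 2 were higher and 2 lower in KO than in APOE33, and 2 higher and 7 lower than in APOE44. Oligodendrocyte lineage markers summed to 187 to 199.6 CPM in KO, 240.3 to 332 in APOE44 and 211 to 238 CPM in APOE33, with KO below every library of both and Mobp and Opalin at 0 in KO. Of 13 tested, 4 were lower and 0 higher than in APOE33, as were 4 and 0 than in APOE44. The part of these cells in the Tgfb2 result was not tested.

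The gene of the co-receptor that helps present TGF-beta2 had its highest libraries in KO astrocytes. Tgfbr3 stood at 19.5, 21.9, 20.5 and 20.3 CPM in KO, against 14.0 to 16.7 CPM (median 15.2) in APOE44 and 16.1 to 19.1 CPM (median 17.4) in APOE33, with all 4 KO libraries above all others of batch 1. It was called against APOE44, at 0.39 (SE 0.06, edgeR adjusted p = 0.000368), in every alternative run, and not against APOE33, at 0.18 (SE 0.06, edgeR adjusted p = 0.0625). Tgfbr1 stood at 36.1, 40.3, 29.5 and 31.8 CPM in KO, against 20.5 to 31.8 CPM (median 24.3) in APOE44 and 20.8 to 37.3 CPM (median 25.5) in APOE33. Its difference was 0.48 (SE 0.15, edgeR adjusted p = 0.0368) from APOE44 and 0.37 (SE 0.16, edgeR adjusted p = 0.119) from APOE33, and the call against APOE44 was lost on leaving out any of APOE44 replicates 1 to 5 or KO replicates 1, 2 or 4, with adjusted p of 0.0533 to 0.106. Tgfbr2 gave 0.10 and 0.12 from APOE33 and APOE44, Smad3 0.01 and -0.07, and Smad7 0.06 and 0.05, none called. Tgfb1 gave 0.31 and 0.17 and Nrros 0.04 and -0.22, also not called. Against APOE33, 0 members were higher and 1 lower, with 17.2% of 20481 genes called (8.37% higher, 8.83% lower). Against APOE44, 2 were higher and 1 lower, with 22.7% called (11.0% higher, 11.8% lower). Member medians were 0.06 and 0.07, beside 0.00 and 0.01 over all genes.

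For the other pathway genes in KO astrocytes the background is the same 17.2% of all genes called against APOE33 and 22.7% against APOE44. The latency list was near that share against APOE33 and the target list near it against APOE44. They included 6 target genes lower and 1 higher than in APOE33 of 24 tested (median -0.13). The matricellular gene Ccn2 was lower at -0.62 (edgeR adjusted p = 0.00421), the AP-1 gene Junb at -1.42 (edgeR adjusted p = 0.0158), Klf10 at -0.76 (edgeR adjusted p = 0.0177) and the collagen gene Col1a1 at -1.91 (edgeR adjusted p = 0.0274). Against APOE44, 4 were lower and 1 higher (median -0.08), with Junb at -1.35 (edgeR adjusted p = 0.0102) and fibronectin, Fn1, at -0.57 (edgeR adjusted p = 0.011). In the latency list 2 were higher and 1 lower of 16 tested against APOE33: Ltbp4 at -0.88 (edgeR adjusted p = 0.0246), Ltbp1 at 0.89 (edgeR adjusted p = 0.0377) and Lrrc32, the counterpart of Nrros on other cells, at 0.86 (edgeR adjusted p = 0.0443). Against APOE44, Ltbp4 and Lrrc32 were called, at -1.20 and 1.14. Nrp1 was the 1 gene called among 14 co-receptors and family receptors, at 0.69 (edgeR adjusted p = 0.00042) from APOE33 and 0.77 (edgeR adjusted p = 5.73e-05) from APOE44. Of 22 SMADs and regulators, 1 was higher and 0 lower than in APOE33 (Smurf2, 0.18), and 2 higher and 4 lower than in APOE44, with Smad4 at -0.26 (edgeR adjusted p = 0.00739) and Smad5 at -0.23 (edgeR adjusted p = 0.00586). Mural and meningeal fibroblast markers, which include Col1a1, summed to 109 to 183 CPM in KO, 119.9 to 178 in APOE44 and 146 to 170.2 CPM in APOE33, with Lum at 0 in APOE33, and 2 were higher and 3 lower of 10 tested against APOE33. Their part in the result was not tested.

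Microglial transcripts in the astrocyte libraries went with some members. The 18 microglia and macrophage markers summed to 318 to 643 CPM in KO astrocytes, 174 to 633 in APOE44, 210.2 to 716 in APOE33 and 224 to 674 CPM in WT, with none at 0; 1 was higher and 0 lower in KO than in APOE33 (median 0.68). Over the 16 astrocyte libraries of batch 1, the level of each member was related to that sum. Tgfb1 gave Pearson's r = 0.878 and Spearman's rho = 0.888 (permutation p = 1e-05 each, the smallest that 100000 resamples can give, 9e-05 adjusted over the 9 genes), and r = 0.899 without the 2 libraries farthest from the median. Tgfbr1 gave r = 0.844 and rho = 0.856 (permutation p = 7e-05 each, adjusted 0.000315), and r = 0.781 without the 2 farthest. The other 7 genes had adjusted permutation p of at least 0.163 for r. Within the 6 WT libraries, the exact permutation test gave r = 0.988 and rho = 0.943 for Tgfb1 (p = 0.00556 and 0.0167, adjusted 0.05 and 0.15) and r = 0.693 for Tgfbr1 (p = 0.111, adjusted 0.35). Per 1000 CPM of microglia markers, Tgfb1 stood at 5.55 to 6.60 CPM in KO astrocytes and 5.77 to 12.3, 4.86 to 10.2 and 7.22 to 8.57 CPM in APOE44, APOE33 and WT astrocytes, beside 10.8 to 12.1, 9.81 to 11.1, 10.2 to 12 and 12.8 to 14.1 CPM in KO, APOE44, APOE33 and WT microglia. On that scale Tgfbr1 stood at 62.75 to 92.8, 50.1 to 124.5, 52.1 to 121.3 and 46.8 to 121.2 CPM in KO, APOE44, APOE33 and WT astrocytes. In microglia of the same genotypes it stood at 34.1 to 41.3, 40.3 to 54.9, 38.65 to 53.1 and 58.95 to 94.7 CPM. Every KO astrocyte library thus stood above every KO microglia library in Tgfbr1, and the cell types overlapped in the other genotypes. Its mean was higher in astrocytes in KO, APOE44 and APOE33, at 71.97, 82.55 and 79.83 CPM against 38.2, 48.96 and 48.3 CPM in microglia. In WT the means were 72.75 CPM in astrocytes and 77.6 CPM in microglia. Over the batch 1 libraries, Tgfb2 was not related to the sum beyond the test's threshold (r = -0.183, rho = 0.121, permutation p = 0.509 and 0.658). Within the 6 WT libraries Tgfb2 gave r = 0.516 (exact permutation p = 0.303, adjusted 0.389), and r = -0.557 without the 2 farthest.

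**Figure D4:**
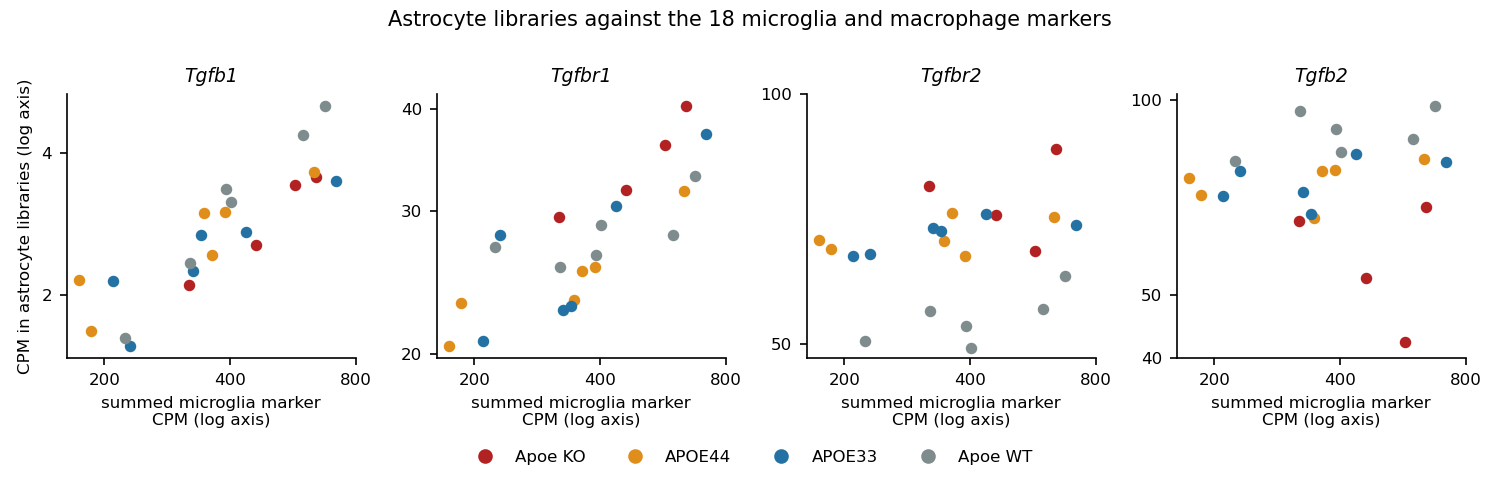
Level of Tgfb1, Tgfbr1, Tgfbr2 and Tgfb2 in each astrocyte library against the summed level of 18 microglia and macrophage markers (CPM, log axes), by genotype. Tgfb1 and Tgfbr1 rise with the marker sum over the 16 libraries of batch 1 (r of 0.878 and 0.844), while Tgfb2 has r = -0.183.

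The KO effect was then compared between the cell types, as the difference of the KO minus APOE33 log2 changes, microglia minus astrocytes. It was called for Tgfbr1, at -0.79 (SE 0.18, edgeR adjusted p = 0.00405), where KO lay lower in microglia and the astrocyte value was 0.37. It was also called for Tgfbr2, at -0.32 (SE 0.08, edgeR adjusted p = 0.0109), and Smad7, at -0.60 (SE 0.17, edgeR adjusted p = 0.0224). Smad3 gave -0.31 (SE 0.11, edgeR adjusted p = 0.0585), Tgfb2 -1.36 (SE 0.64, edgeR adjusted p = 0.172) and Tgfb1 -0.39 (SE 0.25, edgeR adjusted p = 0.354), none called. Tgfb3, Tgfbr3 and Nrros gave 0.01, 0.39 and 0.17. In all, 0 members were higher and 3 lower, with 12.7% of 21647 genes called (6.18% higher, 6.55% lower), and the member median was -0.32 beside -0.03 over all genes. The Tgfbr1 call held in every alternative. With a replicate block, which sets each microglia library beside the astrocyte library of its number, the Tgfbr2 and Smad7 calls were lost (adjusted p 0.0635 and 0.088). The Smad7 call was also lost on leaving out any of 5 libraries, among them microglia APOE33 replicate 3 (-0.49, adjusted p = 0.06) and astrocyte KO replicate 3 (-0.51, adjusted p = 0.0553), the others being microglia KO replicate 3 and astrocyte APOE33 replicates 3 and 6; over all alternatives its adjusted p ran from 0.00354 to 0.088. Astrocytic Tgfbr1 went with microglia markers. Per 1000 CPM of those markers its mean was higher in astrocytes than in microglia in both KO and APOE33. The means were 71.97 and 38.2 CPM in KO, and 79.83 and 48.3 CPM in APOE33. The libraries of the cell types overlapped in APOE33 and not in KO. The part of the markers in the Tgfbr1 difference was not tested.

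Between the human alleles no member was called. APOE44 against APOE33 gave 0 of 9 in microglia and 0 of 9 in astrocytes by edgeR, with 0.840% of genes called in microglia (0.379% higher, 0.461% lower) and 0.703% in astrocytes (0.420% higher, 0.283% lower). DESeq2 called 0 members in microglia and 1 in astrocytes. Before adjustment, edgeR gave p under 0.05 for 2 members in microglia, beside 2037 of all 17143 genes tested. In astrocytes it did so for 1 member, beside 2029 of 20481 genes. Those in microglia were Smad7, at 48.6 to 69.9 CPM in APOE44 against 55.3 to 84.1 CPM in APOE33 (-0.29, unadjusted p = 0.0079, edgeR adjusted p = 0.214), and Tgfb1 (-0.16, unadjusted p = 0.0299, edgeR adjusted p = 0.35). In astrocytes it was Tgfbr3, at 14.0 to 16.7 CPM in APOE44 against 16.1 to 19.1 CPM in APOE33 (-0.22, unadjusted p = 0.00113, edgeR adjusted p = 0.109; DESeq2 adjusted p = 0.0248, with a range of 0.0248 to 0.297 over alternatives). The intervals, somewhat narrower than the edgeR test would give, show roughly what these libraries allow. For the microglial receptors they ran from -0.16 to 0.08 for Tgfbr1 and -0.10 to 0.05 for Tgfbr2, and for astrocytic Tgfb2 from -0.20 to 0.14. The test of a difference between cell types called 0 members (0.296% of all genes called, 0.152% higher and 0.143% lower), and DESeq2 called 0. Before adjustment 0 members had p below 0.05 by edgeR, beside 2463 of all 21647 genes. Of the pathway lists, Bmp2, a BMP ligand, was called in microglia (-0.64, edgeR adjusted p = 0.029) and Smad9, a BMP transducer, in astrocytes (0.25, edgeR adjusted p = 0.0227).

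Against WT, Smad3 and Tgfbr2 were higher and Tgfbr1 lower in microglia of all 3 batch 1 genotypes. Smad3 stood at 62.3, 70.3, 68.4 and 66.2 CPM in KO and 71.7 to 86.5 CPM and 70.0 to 99.2 CPM in APOE44 and APOE33, against 28.3 to 43.7 CPM (median 32.5) in WT, with no overlap. Its log2 differences were 0.90 (SE 0.09, edgeR adjusted p = 2.78e-07), 1.15 (SE 0.09, edgeR adjusted p = 3.45e-09) and 1.23 (SE 0.09, edgeR adjusted p = 1.46e-09) for KO, APOE44 and APOE33. Tgfbr2 stood at 721 to 796 CPM in KO, 826 to 932 CPM in APOE44 and 833 to 922 CPM in APOE33, against 506 to 738 CPM (median 549.6) in WT, where replicates 2 and 6 were the highest and replicate 6 lay within the KO range. Its differences were 0.35, 0.56 and 0.59 (edgeR adjusted p = 0.000698, 8.45e-07 and 4e-07). Tgfbr1 stood at 1322 to 1501 CPM in KO, 1626 to 1972 CPM in APOE44 and 1719 to 1973 CPM in APOE33, against 1847 to 2502 CPM (median 2104) in WT, with KO below all WT libraries and the others overlapping them. It was lower in KO at -0.61 (SE 0.08, edgeR adjusted p = 2.89e-06), in APOE44 at -0.23 (SE 0.07, edgeR adjusted p = 0.00756) and in APOE33 at -0.20 (SE 0.07, edgeR adjusted p = 0.022). The APOE33 call for Tgfbr1 was lost without WT replicate 4 or 5 or APOE33 replicate 3 or 4 (adjusted p 0.0612 to 0.0634, of 0.00504 to 0.0634 over all alternatives). Tgfb1 and Smad7 were also higher in APOE33, by 0.20 (SE 0.06, edgeR adjusted p = 0.00678) and 0.45 (SE 0.09, edgeR adjusted p = 0.000251), and Tgfb2 in APOE44, by 1.21 (SE 0.44, edgeR adjusted p = 0.0293); without the 3 batch 1 libraries with the most Tgfb2, whose loss lowers this difference by the choice itself, Tgfb2 gave 0.50 (adjusted p = 0.209), of 0.00907 to 0.209 over its alternatives, and APOE44 replicate 3 or 6 or WT replicate 2 or 5 left out alone also ended the call. Without the same 3 libraries the Tgfbr1 call in APOE44 was lost too, at -0.16 (adjusted p = 0.0854). Microglia markers moved with these differences: 14, 15 and 15 of the 18 were higher in KO, APOE44 and APOE33 than in WT, and they summed to 36017 to 38808, 34873 to 41546 and 36264 to 44473 CPM, against 26395 to 31334 CPM in WT. Per 1000 CPM of those markers, Smad3 stood at 1.60 to 1.95 CPM in KO, 1.93 to 2.11 in APOE44 and 1.93 to 2.23 in APOE33, still above 1.07 to 1.39 CPM in WT. On the same scale Tgfbr1 stood at 34.1 to 41.3, 40.3 to 54.9 and 38.6 to 53.1 CPM, still below 59.0 to 94.7 CPM in WT. Tgfbr2 then overlapped WT in every genotype, at 20.02 to 20.9, 21.4 to 24.1 and 19.4 to 25.4 CPM in KO, APOE44 and APOE33, against 18.5 to 23.6 CPM in WT. In APOE33, Smad7 overlapped WT too (1.48 to 1.89 CPM in APOE33 against 1.44 to 1.94 CPM in WT), and Tgfb1 lay below it (10.2 to 12 CPM in APOE33 against 12.8 to 14.1 CPM in WT), the other way from its CPM. Fibroblast markers were higher in 1, 2 and 0 and lower in 7, 6 and 6 of 11 tested in KO, APOE44 and APOE33. The part of these cells in the differences from WT was not tested. The members called were 2 higher and 1 lower in KO (42.4% of 18079 genes called, 20.9% higher and 21.5% lower). In APOE44 they were 3 higher and 1 lower (45.4% of genes, 22.3% higher and 23.1% lower). In APOE33 they were 4 higher and 1 lower (44.8% of genes, 22.2% higher and 22.6% lower). The share of members called was thus no larger than that of all genes in KO and APOE44, and somewhat larger in APOE33. With so many genes called, a call against WT says little by itself.

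In astrocytes 5 members were called against WT in each genotype, 3 higher and 2 lower, with 38.3% of 21287 genes called in KO (19.4% higher, 18.9% lower), 41.7% in APOE44 (20.6% higher, 21.1% lower) and 39.0% in APOE33 (20.1% higher, 18.9% lower). Tgfbr3 stood at 19.5 to 21.9 CPM, 14.0 to 16.7 CPM and 16.1 to 19.1 CPM in KO, APOE44 and APOE33, against 7.92 to 10.3 CPM (median 9.02) in WT, and was higher by 1.12 (SE 0.06, edgeR adjusted p = 6.85e-11), 0.73 (SE 0.06, edgeR adjusted p = 5.05e-09) and 0.95 (SE 0.06, edgeR adjusted p = 1.72e-10). Smad3 stood at 41.2 to 47.6 CPM, 41.7 to 48.8 CPM and 37.6 to 47.0 CPM in KO, APOE44 and APOE33, against 32.8 to 35.7 CPM (median 33.3) in WT, and Tgfbr2 at 64.8 to 85.9 CPM, 63.9 to 71.9 CPM and 63.9 to 71.8 CPM, against 49.5 to 60.5 CPM (median 53.7) in WT. Every batch 1 library lay above every WT library in both genes. Smad3 was higher by 0.34, 0.41 and 0.33 in KO, APOE44 and APOE33, and Tgfbr2 by 0.43, 0.29 and 0.31, with edgeR adjusted p between 2.01e-07 and 0.000197. Nrros was lower, with 2.00 to 3.70 CPM, 2.84 to 4.62 CPM and 2.21 to 4.47 CPM in KO, APOE44 and APOE33 against 4.37 to 8.30 CPM (median 5.73) in WT, with KO below all WT libraries and the others overlapping them, and differences of -0.93 (SE 0.17, edgeR adjusted p = 0.000153), -0.72 (SE 0.14, edgeR adjusted p = 0.000305) and -0.99 (SE 0.14, edgeR adjusted p = 1.4e-05). Tgfb2 stood at 42.4 to 68.4 CPM in KO, below every WT library, and at 65.8 to 81.3 CPM and 66.8 to 82.6 CPM in APOE44 and APOE33, which overlapped WT, against 80.7 to 98.1 CPM (median 88.7) in WT. It was lower at -0.70 (SE 0.10, edgeR adjusted p = 1.75e-05) in KO, -0.29 (SE 0.09, edgeR adjusted p = 0.0108) in APOE44 and -0.27 (SE 0.09, edgeR adjusted p = 0.0175) in APOE33; the APOE33 call was lost without APOE33 replicate 6 (-0.23, adjusted p = 0.0535; 0.000803 to 0.0535 over all alternatives). Border macrophage markers summed to 13.4 to 31.3, 8.05 to 21.6 and 6.35 to 13.9 CPM in KO, APOE44 and APOE33 astrocytes, against 30.6 to 92.5 CPM in WT, with none at 0; their part in the Nrros result was not tested. Oligodendrocyte lineage markers summed to 187 to 199.6, 240.3 to 332 and 211 to 238 CPM in KO, APOE44 and APOE33, all above 137 to 150.4 CPM in WT, and their part was not tested either. The 3 comparisons with WT share the same 6 libraries in each cell type, so their likeness is not independent.

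**Figure D5:**
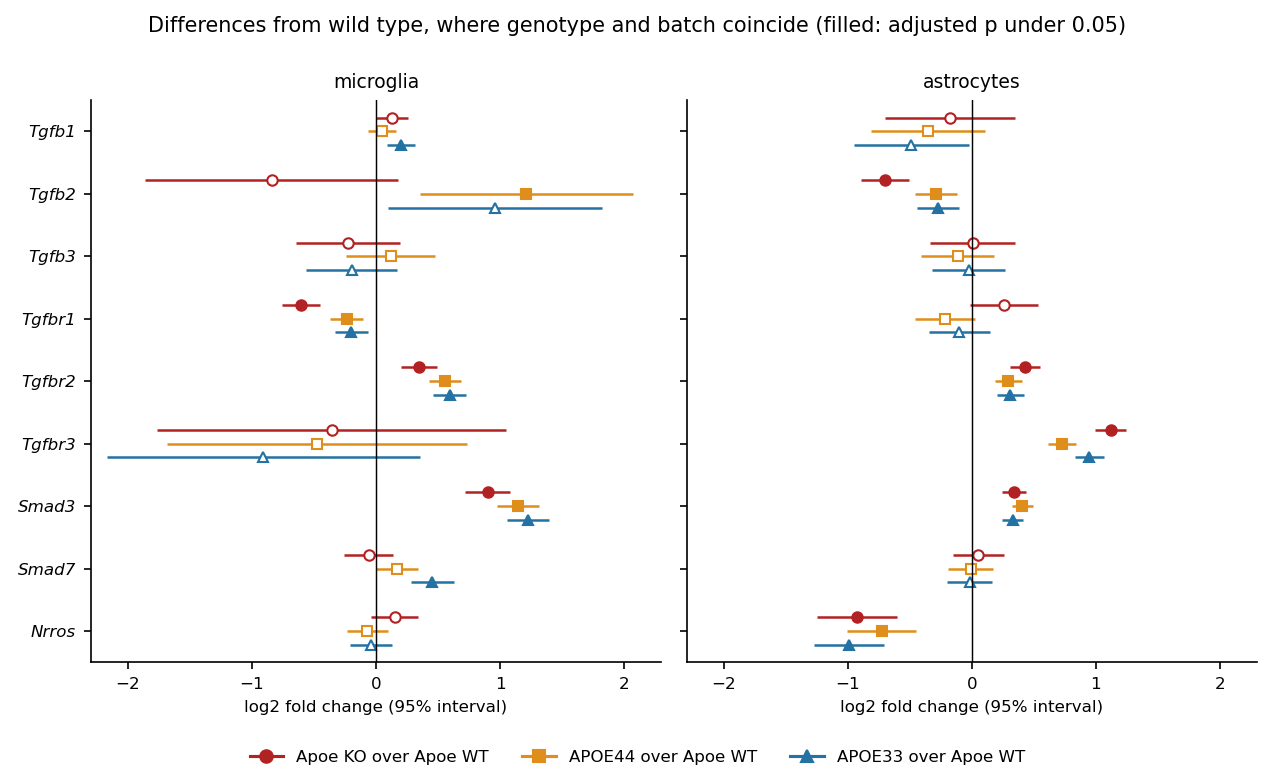
Log2 differences of the 9 genes from WT in KO, APOE44 and APOE33 microglia and astrocytes, with approximate 95% intervals. Filled points have an adjusted p under 0.05. Smad3 and Tgfbr2 lie above 0 in every genotype and both cell types, and Tgfb2 and Nrros below 0 in astrocytes; genotype and batch cannot be told apart here.

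Genes whose level most resembled each member over the 16 batch 1 libraries of a cell type are named by the highest Pearson correlation of log2 CPM, as a description, since libraries share genotype and preparation. In microglia these were Mgat4a for Tgfbr1 (r = 0.952), Rffl for Tgfbr2 (0.961), Pald1 for Smad3 (0.965), Erf for Smad7 (0.944), Cd28 for Nrros (0.921), Tmem115 for Tgfb1 (0.884) and Cntn3 for Tgfb2 (0.902). In astrocytes Tgfb1 was most like the myeloid genes Cd68 (0.946), Fcer1g (0.922) and Themis2 (0.921), and Tgfbr1 like Naip2 (0.975), March1 (0.945) and the leukocyte gene Ptprc (0.941). Tgfb2 was most like Emp1 (0.974), Tmem108 (0.971) and the matrix gene Sparc (0.970), and Tgfb3 like Ddah1 (0.950) and Igfbp5 (0.922). The remaining astrocyte matches were Cenpm for Tgfbr2 (0.909), Gramd2 for Tgfbr3 (0.917), Cdc42bpb for Smad3 (0.889), Sorbs2 for Smad7 (0.897) and Lpl for Nrros (0.827).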

How the data were processed

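A total of 44 libraries of primary mouse microglia and astrocytes were sequenced as 150-base pairs, per the labels. The authors deposited raw counts per gene; STAR 2.5.3a and featureCounts are named in the submitters' processing notes, as are edgeR 3.26.8, DESeq2 3.14 and, as the sole build, the human hg38, although the deposited counts carry mouse gene identifiers. Of 54146 identifiers, 54079 matched GENCODE M21 (GRCm38), which gave names and coordinates.

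Here counts were tested with edgeR 4.0.16 in R 4.3.3 (filterByExpr, TMM, robust quasi-likelihood test, sex as a covariate), with Benjamini-Hochberg adjustment over all genes tested and a threshold of 0.05. Fits covered batch 1 per cell type, batch 1 plus WT per cell type, and both cell types together. SE is the log2 difference over the square root of F. Intervals given as 95% take the normal distribution with that SE, so they are somewhat narrower than the edgeR test would give. Simulated data with known changes were used to test the fits. CPM used TMM factors over all 44 libraries. Alternatives were DESeq2 1.42.0, other size factors, no filter, no sex term, a replicate block, only the groups compared, each library left out, and, added after the values were seen, 3 microglia libraries left out. No replicate pair of 102 held identical counts. Members and lists were chosen with earlier results of these data known. Named genes are all 9 members, up to 4 called genes per list by smallest adjusted p, and up to 3 genes most like a member averaging at least 1 CPM.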

Additional observations from a re-analysis of the deposited data

Results flagged for a closer look

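Of 72 sets of libraries examined (9 genes in 8 groups), 7 held a highest library that stood apart from the rest of its group by Dixon's criterion, and chance gives about 1 in 20. Microglia APOE33 replicate 3 stood apart in Tgfb1, at 528.6 CPM with the next library at 444 CPM, in Smad3, at 99.2 CPM (next 80.6 CPM), and in Smad7, at 84.1 CPM (next 62.9 CPM). Microglia APOE44 replicate 5 stood apart in Tgfbr2, at 932.3 CPM (next 861.2 CPM), and in Smad7, at 69.9 CPM (next 52.4 CPM). Microglia APOE33 replicate 2 stood apart in Tgfbr3, at 0.198 CPM (next 0.0789 CPM), a level of few counts. Astrocyte WT replicate 2 stood apart in Smad3, at 35.7 CPM (next 33.4 CPM).

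The KO effect against APOE33 differed between microglia and astrocytes, by a test of the difference itself, in 3 members: -0.79 on the log2 scale for Tgfbr1, -0.32 for Tgfbr2 and -0.60 for Smad7 (microglia minus astrocytes, edgeR adjusted p = 0.00405, 0.0109 and 0.0224). The Tgfbr1 difference held in every alternative. A replicate block ended the calls of Tgfbr2 and Smad7, and that of Smad7 was also lost on leaving out any of 5 libraries.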

How the results depend on the processing

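No member reversed its direction where called. Of 320 recomputed counts of called members, 312 stayed within 1.5 times the reported count. DESeq2 called 1 member between APOE44 and APOE33 astrocytes, Tgfbr3, against 0. For KO against APOE33 astrocytes, leaving out 1 library gave 1 to 2 members, where APOE33 replicate 2 left out added Tgfbr1 and replicate 6 Tgfbr3, and the fit with no sex term gave 2. For KO against APOE44 microglia, DESeq2 and the fit of only those 2 groups each gave 5, adding Smad3 and Nrros. For APOE44 against WT microglia, leaving out the 3 batch 1 microglia libraries richest in neuron and fibroblast transcripts gave 2. Those 3 also held the most Tgfb2 of batch 1 microglia, so the choice itself lowers the Tgfb2 difference. The cause was not tested.

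The replicate block left 1 member, Tgfbr1, in the difference of the KO effect between cell types, against 3, with Tgfbr2 at -0.31, adjusted p = 0.0635 and Smad7 at -0.58, adjusted p = 0.088. In fits within 1 cell type, the block instead sets same-numbered libraries of different genotypes side by side, although no label ties those to each other. There it ended the Smad3 call for KO against APOE33 microglia (-0.30, adjusted p = 0.0844) and the Tgfbr1 call for KO against APOE44 astrocytes (0.47, adjusted p = 0.0868). It also ended the Tgfb2 calls in microglia for KO against APOE44 (-1.93, adjusted p = 0.0502) and APOE44 against WT (1.03, adjusted p = 0.0661). Same-numbered microglia and astrocyte libraries of a genotype carry the same sex label in 22 of 22 pairs, and no label says whether they share animals or litters. The block was kept as an alternative: correlations of same-numbered microglia and astrocyte libraries ran from -0.023 to 0.296, and 3 of 6 APOE44, 2 of 6 APOE33, 1 of 6 WT and 2 of 4 KO pairs correlated best with their own number. Between KO and APOE33 astrocytes the 4 pairs ran from -0.000 to 0.424, and 4 of 4 correlated best with their own number. Tgfbr3 in microglia and Tgfb2 in KO microglia rest on few counts, so their differences are the least precise.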

Other observations

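Other ligands of the family and their inhibitors, 18 genes in all, held called members in KO astrocytes, where 17.2% of all genes were called against APOE33 and 22.7% against APOE44. In KO astrocytes, 2 were higher and 3 lower than in APOE33 of 17 tested, and 2 higher and 2 lower than in APOE44. The activin subunit gene Inhbb was lower than in APOE33 at a log2 difference of -1.04 (edgeR adjusted p = 0.00169) and than in APOE44 at -1.14 (edgeR adjusted p = 0.000362), and Bmper, which encodes a BMP-binding protein, at -0.90 (edgeR adjusted p = 0.0119) and -1.19 (edgeR adjusted p = 0.00118). Another activin subunit gene, Inhba, was higher than in APOE33 by 0.71 (edgeR adjusted p = 0.0057) and than in APOE44 by 0.75 (edgeR adjusted p = 0.002). Between cell types, 2 were higher and 15 lower in microglia than in astrocytes of batch 1, where 90.9% of all genes were called (40.3% higher, 50.6% lower).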
